A study of Mus musculus with 10 samples.

Results

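The collagen gene family was followed in grafts of pancreatic islets placed under the skin of mice. Collagens are proteins of the extracellular matrix in which 3 chains wind into a triple helix. Each gene encodes 1 kind of chain, and the members are all genes whose symbol has the form Col, number, a, number. Of 44 such genes in the RefSeq annotation, 42 had a probe set that carries their symbol alone, out of 18193 genes measured in this way. Col28a1 and Col6a6 were not analysed here. Where a gene had several probe sets, the one with the highest mean over the 10 arrays stands for it.

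A PSI-F graft held rat islets in a plasma-based scaffold together with cultured skin fibroblasts of nu/nu mice, and a PSI graft held the islets and scaffold alone. PSI-F and PSI grafts were collected on days 1, 3, 7 and 10 from male Swiss nu/nu mice that had been made diabetic with streptozotocin. The 2 biopsies of subcutaneous tissue came from mice without a graft, Diabetic after streptozotocin and Control without it. All mice that received grafts were of the immunodeficient nu/nu strain and 6 weeks old. Each of these 10 conditions has 1 array, so p-values measure the spread between arrays. By the methods, 2 mice of each graft kind were killed on each day and RNA samples were chosen for the array by their quality, without saying whether samples were combined. The added fibroblasts and the host are both of mouse, so their transcripts are not told apart, and rat transcripts are seen only where they bind mouse probes. In whole tissue, fewer cells of a type and less RNA per cell cannot be told apart either.

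Fibrillar collagens (types I, II, III, V, XI, XXIV and XXVII) assemble into the banded fibres that give skin, tendon and scar their strength. Collagens of the FACIT class, such as types XII and XIV, do not form fibres of their own and sit on the surface of those fibres. Type IV collagen forms the sheet-like network of basement membranes under epithelia and around vessels, muscle and fat cells, and type VI forms beaded filaments next to cells. In a healing wound, fibroblasts are known to lay down type III and type I collagen in the young scar tissue.

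Some collagen genes lie near each other in the genome, and most of the pairs given here encode chains of the same type. Col3a1 and Col5a2 are of different types. According to RefSeq on GRCm38.p6, Col4a1 (chromosome 8, 11198423 to 11312889) and Col4a2 (chromosome 8, 11312805 to 11449287), the 2 chains of the common type IV molecule, lie head to head and their annotated bounds overlap by 85 bases. Col4a4 and Col4a3 on chromosome 1 overlap by 114 bases, Col4a6 and Col4a5 on the X chromosome are 1.3 kb apart, Col3a1 and Col5a2 on chromosome 1 are 24.6 kb apart, and Col6a2 and Col6a1 on chromosome 10 are 85.2 kb apart. Promoter windows of RefSeq on the same build matched 33 of the 42 genes. The 150 bases before the start that a window takes are shown for 3 fibrillar genes called higher in late grafts (values further on), and 29 bases each for Col4a1 and Col4a2. For Col5a1 (gene bounds from 27886381) and Col4a1 (bounds to 11312889) this start lies inside the bounds of the gene. Capitals mark a CCAAT box, a TATA box spelled TATAAA or a GC box spelled GGGCGG, on either strand.
Col1a2 (chr6:4505468-4505617, plus strand): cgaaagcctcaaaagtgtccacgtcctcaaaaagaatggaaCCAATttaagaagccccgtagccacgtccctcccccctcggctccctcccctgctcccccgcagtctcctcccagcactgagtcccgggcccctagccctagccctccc
Col3a1 (chr1:45311388-45311537, plus strand): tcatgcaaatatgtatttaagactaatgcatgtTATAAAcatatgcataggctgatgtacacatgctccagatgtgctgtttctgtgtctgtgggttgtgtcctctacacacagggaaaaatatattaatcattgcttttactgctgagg
Col5a1 (chr2:27886275-27886424, plus strand): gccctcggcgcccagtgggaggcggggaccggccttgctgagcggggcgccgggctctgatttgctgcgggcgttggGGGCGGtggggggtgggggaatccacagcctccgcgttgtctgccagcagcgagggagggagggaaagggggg
Col4a1 (chr8:11312955-11312983, minus strand): tgcttgcccgggATTGGcgagccaagggg
Col4a2 (chr8:11312761-11312789, plus strand): ccgaggagctccCCAATttgttggcgctg
The 3 fibrillar stretches shown each hold a different one of these motifs. CCAAT lies 109 bases before the start in Col1a2, TATAAA 117 bases before it in Col3a1 and GGGCGG 73 bases before it in Col5a1. The 33 collagen genes have 36 windows, some of them, as that of Col9a1, inside the bounds of the gene. In the 250 bases before the start, searched on both strands, 13 of these 36 held CCAAT, 5 held TATAAA and 21 held GGGCGG. Over all 32851 promoter windows these shares were 33.8%, 12.4% and 32.7%. The windows of Col4a1 and Col4a2 share 78 bases, and the CCAAT of one is not the site of the other. A match is a description of the letters and no evidence of a bound factor.

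Levels are log2 values, on which a difference of 1 is 2-fold, and the medians of the 10 arrays were 2.82 to 2.94. Of the 42 collagen genes, 25 lay above the array's median on all 10 arrays, 8 on some of them and 9 on none. The 9 that stayed at or below it, Col4a3, Col6a4, Col6a5, Col9a2, Col10a1, Col11a2, Col13a1, Col24a1 and Col26a1, ranged between 0.36 and 2.67 and are close to background, where differences are less reliable. As a check of the tissue, genes of skeletal muscle had a mean level of 11.4 to 12.2 on all 10 arrays and those of basal epidermis 7.58 to 9.03, so muscle and epidermal genes were present in grafts and biopsies alike. Of 9 chondrocyte genes 5 were near background on every array, and the mean of the list lay between 2.49 and 3.01. Hair follicle genes varied most, with a mean of 3.77, 2.85, 6.69 and 8.40 in PSI-F grafts of days 1, 3, 7 and 10, of 5.25, 7.53, 5.21 and 8.23 in PSI grafts, of 8.04 in Diabetic and of 8.57 in Control. Of 24 probe sets for RNA added as a labelling control, 12 were brighter on each of the 4 arrays of days 7 and 10 than on any of the other 6 (by 0.75 to 2.55). Comparisons of days 7 and 10 with earlier arrays or with biopsies cross this difference, and its part in them was not tested.

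The type I and type III genes were at their highest in the day 7 grafts and at their lowest in Diabetic. Col1a1, the main chain of type I collagen, was at 9.75, 11.46, 12.35 and 11.91 in PSI-F grafts of days 1, 3, 7 and 10, at 10.57, 11.36, 12.36 and 11.86 in PSI grafts, at 9.61 in Diabetic and at 9.97 in Control. Its partner Col1a2 was at 10.24, 11.55, 12.27 and 11.82 in PSI-F grafts, at 10.65, 11.64, 12.25 and 11.81 in PSI grafts, at 9.91 in Diabetic and at 10.08 in Control. From day 3 on, all 6 grafts lay above both biopsies for each of these genes, while the day 1 PSI-F graft lay below Control for Col1a1. Col3a1, the only chain of type III collagen, was at 11.51, 12.52, 12.60 and 12.45 in PSI-F grafts, at 11.73, 12.40, 12.65 and 12.50 in PSI grafts, at 10.44 in Diabetic and at 11.15 in Control. It was thus above both biopsies on day 1 already and nearly level from day 3 on. The highest level of any gene on these arrays was 12.65 to 12.96, so Col3a1 was close to the top of the scale, where larger amounts would show less. On day 7 Col1a1 and Col1a2 were close to it as well.

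Type V chains, which co-assemble with type I and regulate the width of its fibrils, had a wider span. Col5a1 was at 6.54, 8.45, 9.68 and 8.27 in PSI-F grafts of days 1, 3, 7 and 10, at 7.01, 8.20, 9.66 and 8.43 in PSI grafts, at 5.99 in Diabetic and at 6.60 in Control. Col5a2 was at 8.38, 10.06, 10.81 and 9.82 in PSI-F grafts, at 8.65, 9.96, 10.79 and 9.98 in PSI grafts, at 7.74 in Diabetic and at 8.0 in Control. Both were highest on day 7, by 3.37 and 2.93 over the mean of the biopsies. The remaining type V gene, Col5a3, peaked on day 7 (PSI-F 8.10, PSI 7.59), but its biopsies were far apart, at 4.26 in Diabetic and 5.75 in Control.

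Of the minor fibrillar genes, Col2a1, Col11a1, Col24a1 and Col27a1 were highest on day 7, while Col11a2, near background, was highest in Diabetic (2.27). Col11a1, a type XI chain found in cartilage and in some scars, was at 2.03, 3.22, 5.01 and 3.08 in PSI-F grafts, at 3.17, 3.45, 5.58 and 3.76 in PSI grafts, at 2.68 in Diabetic and at 2.05 in Control. Only its 2 day 7 values stood more than 1 above all others. Col27a1, a short fibrillar collagen of cartilage and developing tissues, was at 5.08, 5.62, 6.11 and 5.03 in PSI-F grafts, at 4.97, 5.19, 6.01 and 5.05 in PSI grafts, at 3.74 in Diabetic and at 4.29 in Control. Col2a1, the cartilage collagen, had day 7 values of 4.70 for PSI-F and 3.98 for PSI, against 3.10 in Diabetic and 2.78 in Control. Col24a1 reached 2.12 with PSI-F and 2.28 with PSI on day 7 and 0.50 to 1.54 elsewhere, all below the array medians.

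Among the FACIT collagens, the 2 that coat type I fibrils in dense connective tissue, Col12a1 and Col14a1, were also higher on day 7. Col12a1 was at 5.21, 6.94, 8.06 and 6.10 in PSI-F grafts, at 5.92, 6.19, 8.33 and 6.68 in PSI grafts, at 5.32 in Diabetic and at 5.95 in Control. Col14a1 was at 6.62, 7.82, 8.30 and 8.21 in PSI-F grafts, at 6.90, 7.93, 9.0 and 8.57 in PSI grafts, at 6.24 in Diabetic and at 6.20 in Control. The 2 differ after the maximum, since Col12a1 was 1.81 lower on day 10 than on day 7 and Col14a1 only 0.26 lower (means of both grafts). Col16a1, a FACIT collagen of skin and smooth muscle, was at 6.55, 6.89, 7.95 and 7.78 in PSI-F grafts, at 6.65, 7.01, 7.87 and 7.31 in PSI grafts, at 6.33 in Diabetic and at 7.21 in Control, so its early grafts lay between the biopsies.

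Col19a1 ran the other way from its class. This FACIT gene, known in the mouse from embryonic muscle and brain, was at 3.76, 2.81, 1.98 and 2.07 in PSI-F grafts of days 1, 3, 7 and 10, at 3.46, 1.90, 1.99 and 1.99 in PSI grafts, at 1.88 in Diabetic and at 1.72 in Control. Only both day 1 arrays exceeded the array median. A second probe set gave 4.26, 3.61, 1.11 and 1.77 in PSI-F grafts, 4.71, 1.55, 1.29 and 1.32 in PSI grafts, 1.59 in Diabetic and 1.07 in Control, and so was also high on day 1 and in the PSI-F graft of day 3. The remaining probe set stayed below the array medians. The neighbouring Col9a1, which lies 4.9 kb from Col19a1 in the annotation, had 2.51 to 3.38 on all arrays.

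Type VI chains, which need one another to form the beaded filament, had nearly the same course. Col6a1 was at 8.18, 9.17, 9.67 and 9.15 in PSI-F grafts, at 8.48, 8.83, 10.24 and 9.17 in PSI grafts, at 7.55 in Diabetic and at 7.82 in Control. Col6a2 was at 8.12, 9.31, 10.34 and 9.41 in PSI-F grafts, at 8.48, 9.05, 10.37 and 9.30 in PSI grafts, at 7.53 in Diabetic and at 8.07 in Control. Col6a3 was at 8.64, 9.73, 10.48 and 9.40 in PSI-F grafts, at 8.74, 9.42, 10.62 and 9.41 in PSI grafts, at 7.34 in Diabetic and at 8.14 in Control. All 8 grafts exceeded both biopsies for each of the 3 genes. The other 2 genes of the type with a probe set, Col6a4 and Col6a5, stayed near background.

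Col8a1, a short chain collagen made by vessels and injured tissue, was at 5.93, 7.11, 7.45 and 5.26 in PSI-F grafts, at 6.20, 6.49, 6.98 and 6.14 in PSI grafts, at 4.73 in Diabetic and at 4.60 in Control. All 8 grafts lay above both biopsies, and the PSI-F graft of day 10 was the nearest to them. Its partner gene Col8a2 did not share this course. It had 2.71, 1.80, 2.2 and 2.59 in PSI-F grafts, 2.07, 2.31, 3.55 and 2.65 in PSI grafts, 2.53 in Diabetic and 2.45 in Control, with only the PSI graft of day 7 above the array median.

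The 2 main basement membrane genes had a smaller span. Col4a1 was at 9.06, 9.31, 9.57 and 9.39 in PSI-F grafts, at 9.05, 9.29, 9.82 and 9.27 in PSI grafts, at 8.50 in Diabetic and at 8.26 in Control. Col4a2 was at 7.90, 8.34, 8.29 and 8.31 in PSI-F grafts, at 7.84, 8.29, 8.67 and 8.09 in PSI grafts, at 7.38 in Diabetic and at 7.34 in Control. All grafts lay above both biopsies, by a step that was present on day 1. Col4a5 (4.95 to 5.93) and Col4a6 (3.22 to 3.84), chains of other type IV molecules, had grafts and biopsies overlapping, as did Col4a4 (2.09 to 3.09).

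Among the collagens that tie the epidermis to the dermis, Col17a1 followed another course. Col17a1, a transmembrane collagen of basal keratinocytes, was at 7.98, 7.78, 7.01 and 8.20 in PSI-F grafts, at 8.26, 7.61, 7.80 and 8.16 in PSI grafts, at 7.53 in Diabetic and at 8.45 in Control. The PSI-F graft of day 7, which was highest or nearly so for the fibrillar genes, was the lowest here, and it also had the lowest mean of the basal epidermis list (7.58). Col7a1, the anchoring fibril collagen, was at 6.25, 6.18, 6.39 and 5.74 in PSI-F grafts, at 5.87, 5.40, 6.25 and 5.77 in PSI grafts, at 5.21 in Diabetic and at 5.91 in Control. It was highest on day 7 within each graft kind, but its grafts and biopsies overlapped.

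The multiplexins, which carry endostatin-like ends and sit at basement membranes, had these values. Col15a1 was at 5.23, 6.30, 6.48 and 6.72 in PSI-F grafts, at 5.48, 6.49, 7.12 and 6.56 in PSI grafts, at 5.17 in Diabetic and at 5.66 in Control. Col18a1 was at 6.65, 7.01, 7.00 and 7.23 in PSI-F grafts, at 6.45, 6.87, 7.17 and 7.30 in PSI grafts, at 5.70 in Diabetic and at 7.14 in Control. For Col18a1 the grafts lay above Diabetic and around Control, so the choice of biopsy decides its difference. Of the members left, Col20a1 (3.04 to 3.96), Col23a1 (4.07 to 4.59) and Col25a1 (3.36 to 4.19) were above the array medians with a span under 1, and Col9a3 (2.76 to 3.55) and Col22a1 (2.31 to 3.22) lay around them.

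**Figure D1:**
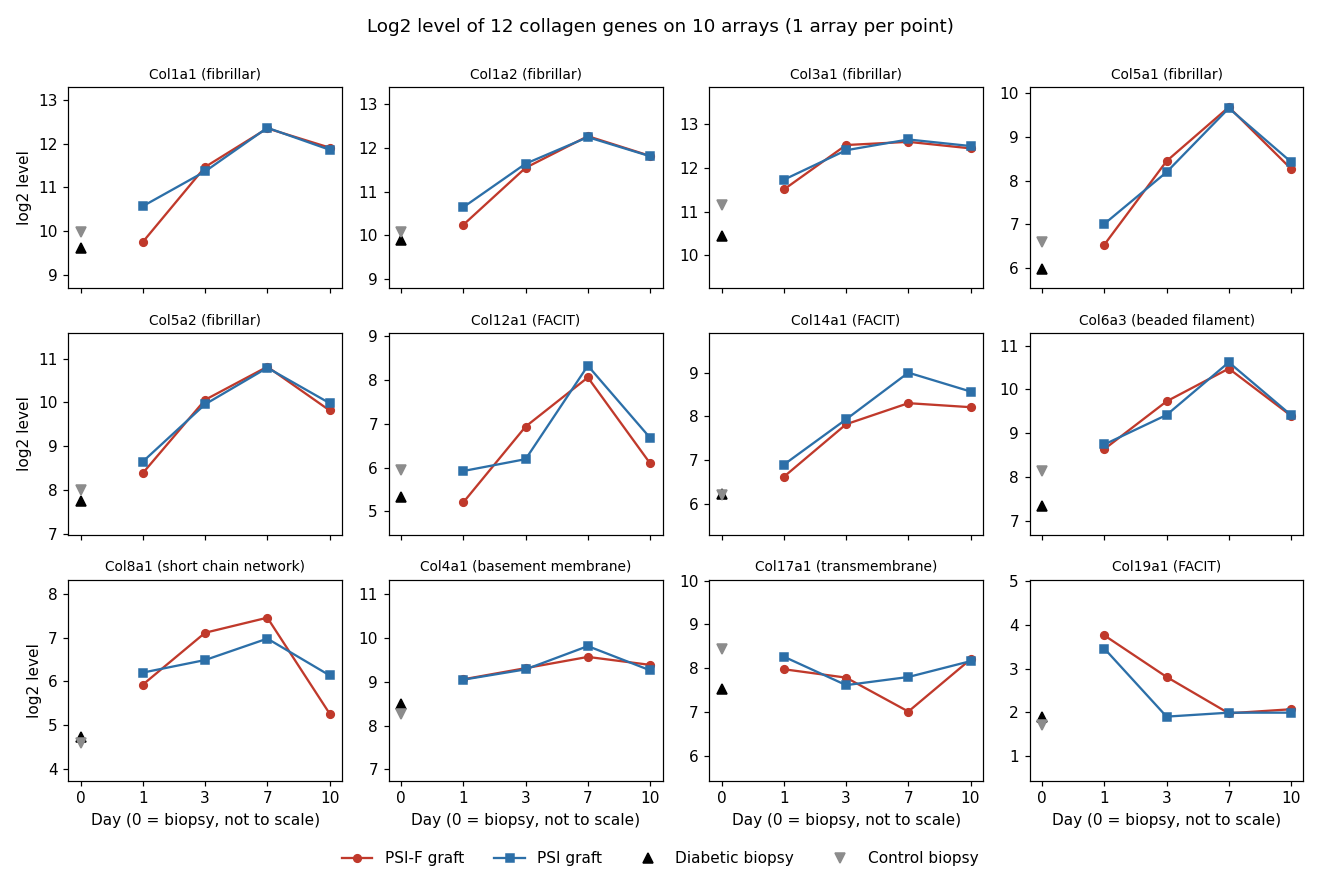
Log2 level (vertical axis, each panel spanning the same range) of 12 collagen genes against day after transplantation (horizontal axis, not to scale), with red circles for PSI-F grafts, blue squares for PSI grafts and triangles for the Diabetic and Control biopsies at day 0. Each point is 1 array, and lines join points for reading only. Most panels are highest on day 7, as for Col5a1 (PSI-F 9.68, PSI 9.66), while Col17a1 is lowest in the day 7 PSI-F graft and Col19a1 is high on day 1.

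Both day 7 grafts exceeded the 8 other arrays in 17 of 42 collagen genes, which holds for 5.27% of all genes. These were 9 of 11 fibrillar, 4 of 9 FACIT, 1 of 6 basement membrane and 3 of 16 other genes. The median difference of the fibrillar genes from their own 10-array means was -0.61, 0.34, 1.23 and 0.39 in PSI-F grafts of days 1, 3, 7 and 10, -0.55, 0.31, 1.03 and 0.51 in PSI grafts, -1.37 in Diabetic and -0.93 in Control. Basement membrane genes stayed between -0.22 and 0.18 on the same measure, FACIT genes between -0.26 and 0.53 and the other class between -0.25 and 0.24. The median of all genes lay between -0.01 and 0.01 on the 10 arrays. Between the day 7 grafts and the biopsies the class medians differed by 2.27 for fibrillar, 0.56 for FACIT, 0.37 for other and 0.21 for basement membrane genes. These values have no test, and they moved with the genes included: without those near background the other class was at 1.3, led by type VI and Col8a1, and with a gene's probe sets averaged the basement membrane class was at 0.00.

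**Figure D2:**
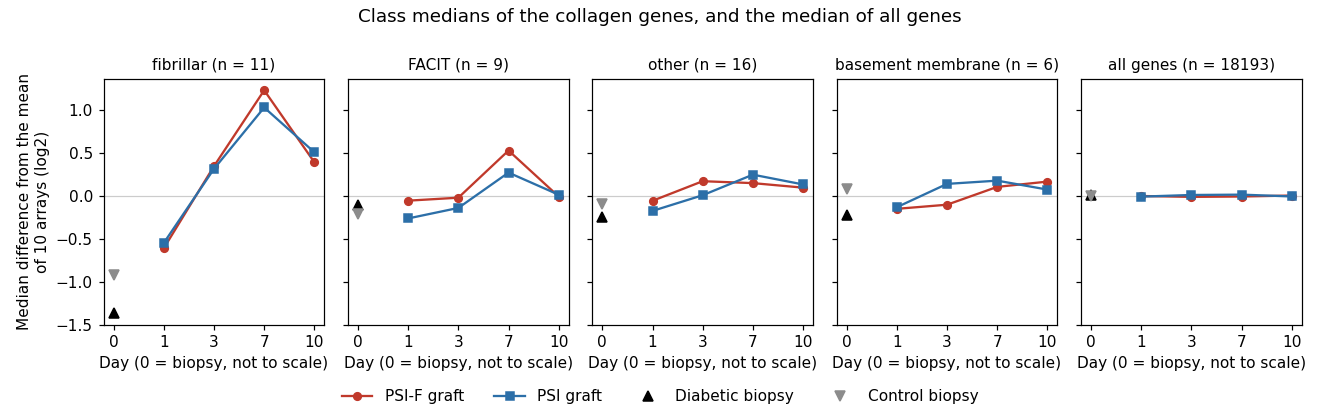
Median over the genes of a class of each gene's difference from its own mean over 10 arrays (vertical axis, log2) against day (horizontal axis, not to scale), in a panel for each collagen class and for all genes. Red circles are PSI-F grafts, blue squares PSI grafts and triangles the biopsies, 1 array each. On day 7 the fibrillar median is 1.23 for PSI-F and 1.03 for PSI, and the median of all genes stays at 0.

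Against the biopsies, the late grafts (days 7 and 10, 4 arrays) had 12 of 42 collagen genes higher and none lower. The test was limma with Benjamini-Hochberg adjustment over 45037 probe sets, where an adjusted p under 0.05 counts as a call, and it called 2.17% of all genes higher and 0.66% lower. The called genes were both type I chains, Col3a1, Col5a1, Col5a2 and Col27a1, the FACIT gene Col14a1, the 3 main type VI chains, and Col4a1 and Col4a2. Col1a1 rose 5.02-fold (log2 difference 2.33, SE 0.41, adjusted p = 0.024 with limma), Col5a1 6.56-fold (2.71, SE 0.58, adjusted p = 0.043) and Col14a1 4.94-fold (2.31, SE 0.36, adjusted p = 0.016). With a gene's probe sets averaged, Col14a1 differed by 1.364 and was still called, and Col1a1 and Col27a1 were not (adjusted p = 0.10 and 0.082). The smallest of the 12 was Col4a2 at 0.98 (SE 0.19, adjusted p = 0.032 with limma). Over all 42 collagen genes the median difference was 0.61, against 0.00 over all genes.

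Without a test, 23 of 42 collagen genes had all 4 late grafts above both biopsies, against 13.9% of all genes, and 10 of 11 fibrillar genes did, all but Col11a2. Genes with large differences that were not called included Col5a3 at 2.40 and Col11a1 at 2.0. No late difference of the 42 was below -0.35. The calls rest on few arrays. With Control as the only biopsy none of the 12 was called (adjusted p 0.058 to 0.21, all 12 still higher, by 1.0 to 2.41), while 38 of all 18193 genes were called higher in that fit. With Diabetic as the only biopsy 15 were, beside 1254 of all genes (395 with both biopsies). Without the PSI-F array of day 7 the count was 2 (Col4a1 and Col14a1), and without the PSI array of that day 3 (these and Col6a1). As measured beside these genes, the fibroblast list also had a higher mean level (7.47 to 7.90 in the late grafts, against 6.59 and 6.60 in the biopsies). Of its 12 genes 1 was called higher, Lum, a proteoglycan of collagen fibrils, beside 2.17% of all genes. The part of cell numbers in the differences was not tested.

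**Figure D3:**
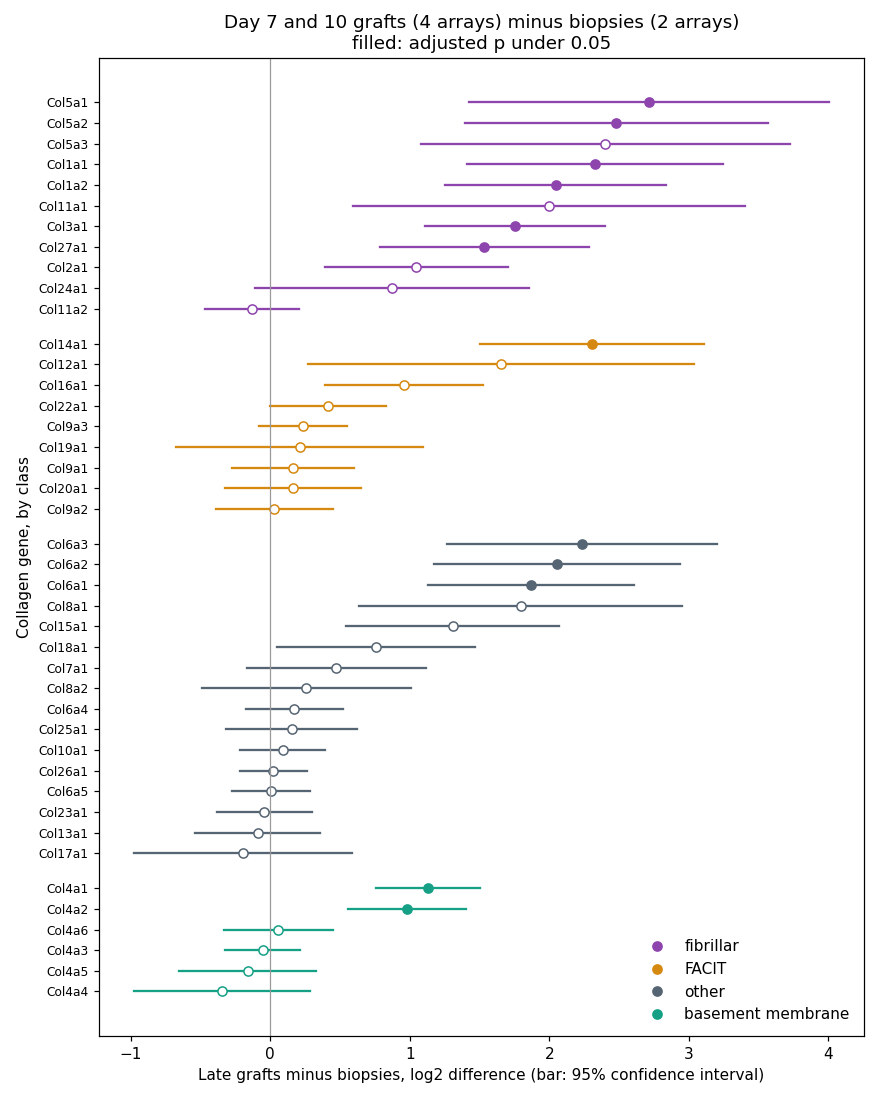
Log2 difference between the 4 late grafts and the 2 biopsies (horizontal axis) for each of the 42 collagen genes (vertical axis, grouped and coloured by class). Points are limma estimates, bars their 95% confidence intervals and filled points genes with an adjusted p under 0.05. The 12 filled points lie between 0.98 (Col4a2) and 2.71 (Col5a1).

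The early grafts (days 1 and 3, 4 arrays) had 2 collagen genes above the biopsies and none below, while limma called 3.81% of all genes higher and 0.962% lower. Col3a1 rose by 1.25 (SE 0.29, adjusted p = 0.044) and Col4a1 by 0.79 (SE 0.17, adjusted p = 0.031). Both calls were lost without Diabetic, without the PSI array of day 1, without either array of day 3, and with a gene's probe sets averaged. Col3a1 was also lost without any 1 of the late arrays, and Col4a1 without the PSI-F array of day 1 or without Control. Over all alternatives Col3a1 differed by 0.89 to 1.60 and Col4a1 by 0.67 to 0.91. The 13 collagen genes with all 4 early grafts above both biopsies compare with 13.2% of all genes. A fit of single days, chosen after the data were seen and taking both graft kinds of a day as its replicates, placed 4 genes above the biopsies on day 1 (3.87% of all genes were called higher and 1.69% lower). These were Col19a1 at 1.81 (SE 0.27, adjusted p = 0.0085 with limma), Col8a1 at 1.40, Col27a1 at 1.01 and Col4a1 at 0.67. All 4 calls were lost without the PSI-F array of day 1. Those of Col8a1, Col27a1 and Col4a1 were also lost without the PSI array of day 1 or either array of day 7. Col4a1 lost its call without any 1 array of days 3 and 10 as well. Over all alternatives the differences were 1.65 to 1.96 for Col19a1, 1.21 to 1.54 for Col8a1, 0.73 to 1.29 for Col27a1 and 0.55 to 0.79 for Col4a1. Each fit without an array leaves 1 array in a group, so further calls in it are not counted.

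Between late and early grafts, Col16a1 was the only collagen gene called, 1.93-fold higher (0.95, SE 0.16, adjusted p = 0.035 with limma), and none was lower. Of all genes 0.176% were called higher and 0.687% lower. The 11 fibrillar genes were all higher in the late grafts, by 0.27 to 1.46, and 7 of them had an unadjusted p under 0.05, against 17.1% of all genes, without passing the adjustment (smallest adjusted p 0.10). Among these, Col5a1 differed by 1.46 (95% interval 0.39 to 2.54) and Col1a1 by 1.33 (0.56 to 2.10). Without both arrays of day 3, 7 were called higher, Col1a1, Col1a2, Col3a1, Col5a2, Col14a1, Col15a1 and Col16a1, and Col19a1 was called lower by 1.60. That fit called 94 of all 18193 genes higher and 241 lower, against 32 and 125 with all 8 grafts. Without the arrays of day 10, 2 were called (Col11a1 and Col16a1), beside 34 of all genes higher and 68 lower. None was called without those of day 1 (0 of all genes) or of day 7 (111 of all genes higher and 136 lower). The call of Col16a1 was lost with the graft kind as a block (adjusted p = 0.062 with limma) or with the day as a random block (0.055). It was also lost with the PSI-F array of any day left out or with either PSI array of days 1 and 7 left out. Col19a1 was called lower without the PSI array of day 3, beside 200 of all genes.

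Day by day, in means of both graft kinds, Col6a1, Col6a2, Col6a3 and all fibrillar genes but Col11a2 were higher on day 3 than on day 1, higher again on day 7 and lower on day 10. The same course held for Col4a1, Col4a2, Col8a1, Col9a1, Col12a1, Col14a1, Col15a1, Col16a1, Col22a1 and, near background, Col26a1. Between days 3 and 1 limma called 1 collagen gene, Col5a2, higher on day 3 by 1.49 (SE 0.16, adjusted p = 0.032), with 0.033% of all genes called higher and 0.033% lower. Col5a1 (1.55, adjusted p = 0.091) and Col1a2 (1.15, adjusted p = 0.069) did not pass. Between days 7 and 3 no collagen gene was called, nor any other gene (0.0% higher and 0.0% lower), though 19 of 42 collagen genes had an unadjusted p under 0.05, against 11.3% of all genes. The largest differences were in Col11a1 (1.96), Col12a1 (1.63) and Col5a1 (1.35). Between days 10 and 7 no collagen gene was called, with 0.0275% of all genes higher and 0.0055% lower. Here 14 had an unadjusted p under 0.05, against 12.2% of all genes, and all 11 fibrillar genes were lower on day 10, by 0.15 to 1.88. Col24a1 (-1.46, adjusted p = 0.087) was nearest to a call, and Col12a1 differed by -1.81 and Col8a1 by -1.52.

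These steps do not involve the biopsies, but their test borrows the spread of the pair. With either biopsy left out, so that only grafts give the spread, 4 genes were called higher on day 3 than on day 1 (Col1a2, Col3a1, Col5a1 and Col5a2). In the same fits 3 were called higher on day 7 than on day 3 (Col5a1, Col6a2 and Col6a3), and 7 lower on day 10 than on day 7 (Col5a1, Col5a2, Col6a2, Col6a3, Col12a1, Col24a1 and Col27a1). Of all 18193 genes these fits called 59, 45 and 251 higher and 48, 94 and 95 lower in the 3 steps, also more than with both biopsies. Leaving out any graft array took away the call of Col5a2. The step between days 3 and 7 crosses the difference in the labelling controls, and those between days 1 and 3 and between days 7 and 10 do not.

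No collagen gene was called to differ between PSI-F and PSI grafts. With the day as a block, limma called none of the 42 (smallest adjusted p 0.75), and of all genes 0.0% were called. An unadjusted p under 0.05 was reached by 4, Col11a1 (-0.66, 95% interval -1.0 to -0.31), Col4a4 (-0.49), Col14a1 (-0.36) and Col2a1 (0.36), against 6.28% of all genes. The median difference was 0.00 over the collagen genes and -0.02 over all genes. For Col1a1 the interval was -0.55 to 0.21 and for Col3a1 -0.29 to 0.18, each for the brighter probe set. That of Col3a1 is near the top of the scale, and so is that of Col1a1 on day 7. Another probe set of Col1a1 gave other values (given further on). The difference between late and early grafts was not called to differ between PSI-F and PSI in any collagen gene (1 unadjusted p under 0.05, and 0.0% of all genes called).

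Within a day there is 1 array of each kind and no test. The median size of the difference was 0.26, 0.25, 0.21 and 0.11 over the collagen genes on days 1, 3, 7 and 10, against 0.19, 0.18, 0.22 and 0.12 over all genes. On day 1, 1 of 42 collagen genes was at least 2-fold apart, Col11a1 at 2.03 in PSI-F and 3.17 in PSI (-1.15), against 1.13% of all genes. The fibrillar median was -0.26 on this day, with Col1a1 at -0.82, Col5a1 at -0.47 and Col1a2 at -0.40. On day 3 none was 2-fold apart in the probe set that stands for it (2.86% of all genes). The largest differences were in Col19a1 (0.91), Col4a4 (-0.84), Col7a1 (0.78) and Col12a1 (0.75). The second probe set of Col19a1 differed by 2.05 on this day, at 3.61 in PSI-F and 1.55 in PSI, with only the PSI-F value above its array's median. On day 7 Col8a2 was 2-fold apart, at 2.2 in PSI-F and 3.55 in PSI (-1.35, with only the PSI value above its array's median), against 1.78% of all genes. Second probe sets of Col11a1 (-1.18) and Col1a1 (1.27) were 2-fold apart as well on this day. In its brighter probe set Col1a1 differed by -0.01 on this day, Col1a2 by 0.02, Col5a1 by 0.03 and Col5a2 by 0.02, while Col14a1 differed by -0.70 and Col6a1 by -0.56. Col1a1 and Col1a2 were then near the top of the scale. On day 10 none was 2-fold apart (0.731% of all genes), with Col8a1 at -0.87 and Col5a3 at -0.80. Col4a4, Col6a5 (near background), Col11a1 and Col14a1 were lower in PSI-F on all 4 days, and Col2a1 was higher on all 4. The share of all genes with 1 sign on all 4 days was not counted, so no result is read from this. Of their other probe sets not near background, those of Col11a1 and Col14a1 kept the sign, and that of Col4a4 was higher in PSI-F on day 10 (0.41).

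**Figure D4:**
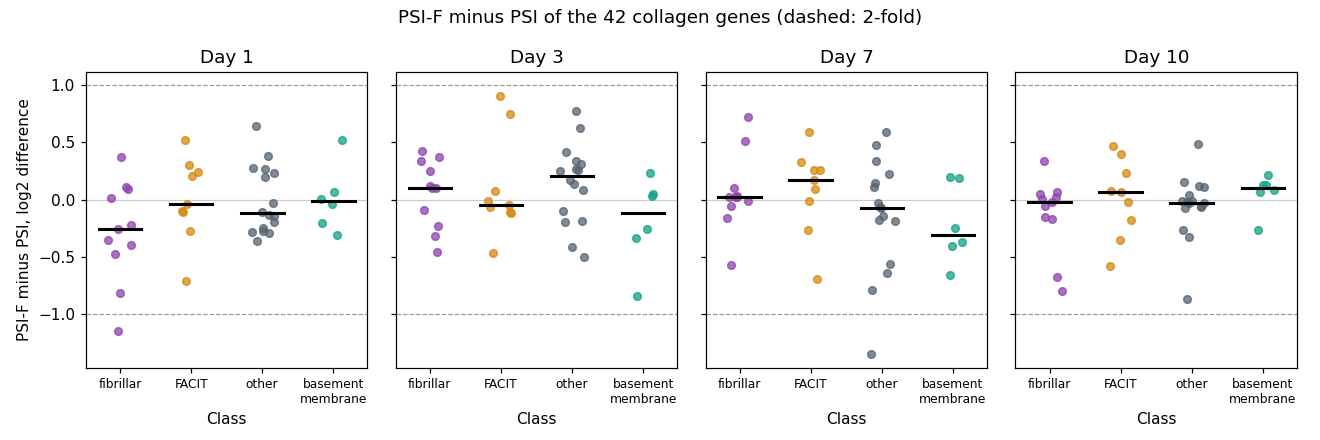
Log2 difference of PSI-F minus PSI (vertical axis) for the 42 collagen genes arranged by class (horizontal axis), with 1 panel per day. A point stands for 1 gene, black bars are class medians and dashed lines mark 2-fold. Points past the lines are Col11a1 on day 1 (-1.15) and Col8a2 on day 7 (-1.35).

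A second probe set of Col1a1 gave another picture of the graft kinds. It had 7.34, 8.43, 9.15 and 8.49 in PSI-F grafts of days 1, 3, 7 and 10, 7.88, 7.83, 7.88 and 7.56 in PSI grafts, 7.89 in Diabetic and 8.17 in Control. PSI-F therefore lay above PSI by 0.60, 1.27 and 0.93 on days 3, 7 and 10 and below it by 0.54 on day 1, while the brighter probe set differed by 0.10, -0.01 and 0.05 on days 3, 7 and 10. The PSI grafts lay below both biopsies in this probe set. Where on the transcript it binds was not examined, and averaged over both probe sets Col1a1 was 1.28 higher in late grafts than in biopsies (adjusted p = 0.10 with limma).

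The second probe set of Col3a1 was dimmer and had a wider span than the first, with 7.87, 9.74, 9.86 and 9.26 in PSI-F grafts, 8.31, 9.53, 10.17 and 9.61 in PSI grafts, 6.22 in Diabetic and 7.76 in Control. It differed by 3.03 between day 7 grafts and biopsies, against 1.83 for the first. Of 19 collagen genes with several probe sets above background, 16 had the same sign of the late difference in all of them, and the exceptions, Col23a1, Col4a5 and Col4a6, had small differences. The same sign does not mean the same size. Col1a1 is among the 16 with late differences of 2.33 and 0.24, and in the second of these probe sets both late PSI grafts lay below both biopsies.

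**Figure D5:**
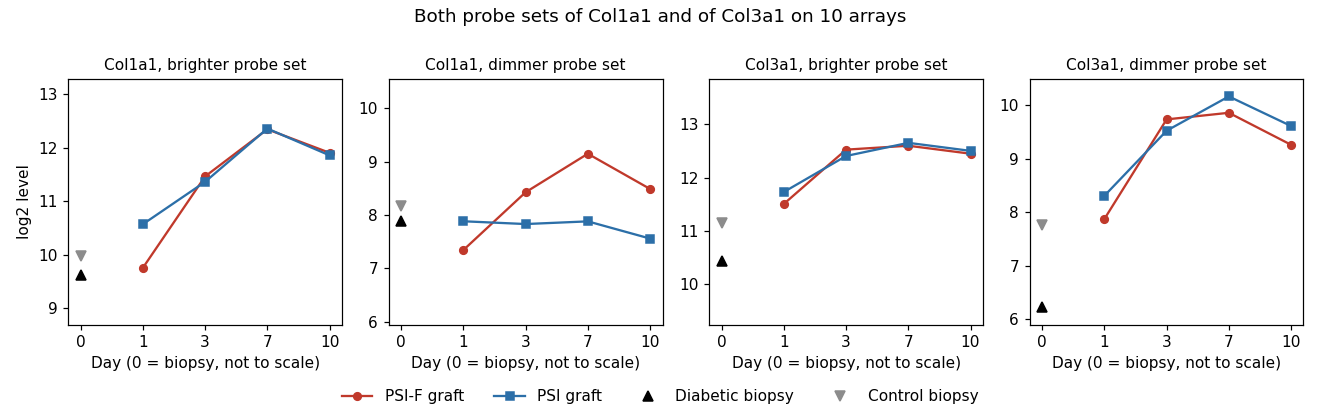
Log2 level (vertical axis) of both probe sets of Col1a1 and of Col3a1 against day (horizontal axis, not to scale), with red circles for PSI-F, blue squares for PSI and triangles for the Diabetic and Control biopsies, 1 array each. On day 7 the dimmer Col1a1 probe set has PSI-F at 9.15 and PSI at 7.88, while both are at the same level in the brighter one.

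The main chains of types I, IV, V and VI kept a nearly constant difference to each other over the 10 arrays. This holds for the probe sets that stand for the genes. The second probe set of Col1a1 was not compared in this way, and it was at 7.88 in the PSI grafts of days 1 and 7. Col1a2 was at 10.65 and 12.25 in these grafts. The SD of the difference between Col4a1 and Col4a2 was 0.11, where each alone had an SD of 0.47 and 0.43. For Col1a1 and Col1a2 it was 0.20 (alone 1.06 and 0.91), for Col5a1 and Col5a2 0.25 (1.29 and 1.13), and for the 3 pairs of type VI chains 0.21 to 0.27. In contrast, Col8a1 and Col8a2 had an SD of 1.13 for the difference, above those of the single genes (0.98 and 0.47). The same held for Col4a5 and Col4a6 (0.37, alone 0.29 and 0.19), while Col4a3 and Col4a4 had 0.33 (alone 0.14 and 0.39). Of the head-to-head pairs, Col4a4 and Col4a3 differed by -0.51 and -0.09 between day 7 grafts and biopsies, and Col4a1 and Col4a2 by 1.31 and 1.12. These are descriptions over 10 arrays of 10 conditions, and the arrays share their course in time.

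Between the 2 biopsies, 2 of 42 collagen genes were 2-fold apart, against 11.0% of all genes, and the median size of the difference was 0.29 over collagen genes and 0.30 over all genes. Col5a3 was at 4.26 in Diabetic and 5.75 in Control (-1.49) and Col18a1 at 5.70 and 7.14 (-1.44). Among the rest, Col17a1 differed by -0.92, Col16a1 by -0.88, Col4a5 by -0.84, Col6a3 by -0.80 and Col3a1 by -0.71, all lower in Diabetic, and Col11a1 by 0.63. The median of the 11 fibrillar genes was -0.26. Streptozotocin, the animal and the piece of tissue cannot be told apart with 1 array each.

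Enzymes and chaperones modify, fold and crosslink collagen chains. Of 37 genes for them with a probe set (out of 41 listed), limma called 5 higher in early grafts than in biopsies, beside 3.81% of all genes. In late grafts 5 were called higher, beside 2.17% of all genes, and none was lower in either. These calls rest on the same 2 biopsies as those of the collagen genes. Their dependence on single arrays is not given for this list or those below. Loxl1, a lysyl oxidase that crosslinks matrix fibres, was higher by 1.40 (SE 0.31) in early and by 1.92 (SE 0.31) in late grafts. Plod3 (1.19), Plod1 (1.14) and P4ha1 (1.07), which hydroxylate lysine and proline of the chains, were called in the early grafts, with Colgalt1, which adds galactose, at 0.83. In the late grafts Sparc, a collagen-binding protein of the matrix, was higher by 1.85, Plod1 by 1.18, Bmp1, a protease that trims the ends of procollagen, by 1.15 and Colgalt1 by 0.75. The median of the 37 was 0.80 in early and 0.81 in late grafts against biopsies, where the collagen genes had 0.22 and 0.61 and all genes -0.027 and -0.0041. Between late and early grafts none was called and the median was -0.02, and between PSI-F and PSI none was called either (median -0.03).

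The called genes of this list differed in course. P4ha1 was at 6.41, 6.61, 5.85 and 5.49 in PSI-F grafts of days 1, 3, 7 and 10, at 6.10, 6.36, 6.0 and 5.77 in PSI grafts, at 5.13 in Diabetic and at 5.46 in Control, and so was highest on day 3. Sparc was at 10.45, 11.28, 11.96 and 11.37 in PSI-F grafts, at 10.50, 11.21, 12.02 and 11.41 in PSI grafts, at 9.36 in Diabetic and at 10.32 in Control, with the day 7 maximum of the fibrillar genes.

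Of 12 genes listed as collagen receptors 11 had a probe set. Limma called 3 of them higher in early grafts than in biopsies (3.81% of all genes), 1 higher in late grafts (2.17% of all genes) and none lower. Cd93, a lectin-like receptor of endothelial and myeloid cells that is not an established collagen receptor, was higher by 2.08 in early and 1.80 in late grafts. It was the only late call, so no other gene of the list was called in late grafts. Lair1, an inhibitory collagen receptor of leukocytes, was higher by 2.31 in early grafts, and Itgb1, the beta chain of collagen-binding integrins, by 1.35. All 6 macrophage genes were called higher in the early grafts and 5 in the late ones (3.81% and 2.17% of all genes). Their list mean was 8.20 to 9.06 in early grafts and 7.10 to 8.21 in late grafts, against 5.14 in Diabetic and 5.32 in Control. The part of these cells in the receptor values was not tested.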

How the data were processed

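Total RNA of 10 conditions was measured on Affymetrix mouse arrays. The authors deposited log2 expression values from RMA, which corrects background, equalises the arrays by quantiles and summarises the probes of a set. R 2.15.0 and affy 1.36.0 are named in the submitters' processing notes. Of 45101 probe sets, 64 array controls were left out. Gene symbols came from the platform annotation, and only probe sets with 1 symbol were named (34945 probe sets, 82 of them of collagen genes, and 27 collagen genes have several).

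Grafts of several days were compared with limma 3.58.1 (lmFit and eBayes, two-sided) in R 4.3.3, adjusted by Benjamini-Hochberg over 45037 probe sets: the kinds of graft (PSI-F minus PSI, blocked by day), late minus early grafts, early and late grafts minus biopsies, and the interaction of graft kind with phase. Days and graft kinds serve as replicates in these fits, and p-values then measure the spread between these arrays. Within a day and between the biopsies, differences were counted at 2-fold. Arrays hold no counts, so their number limits the precision. The scripts were tested on simulated data. The members, gene lists and comparisons were chosen with earlier results of these data known.

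Values were given on all 10 arrays for a fixed list of fibrillar, type IV, type VI and other major collagen genes, for called members and for members 2-fold apart between graft kinds. Of other lists, up to 4 called genes were named. Genes named outside this rule (among them Col2a1, Col4a4, Col4a5, Col5a3, Col9a1 and Col24a1) were picked after their values were seen. Alternatives were averaging a gene's probe sets, a filter on dim probe sets, cyclic loess, an intensity trend, other blocks, a 4-fold threshold, and leaving out each array or day. Fits of single days were added after the data were seen. Python 3.11.15 with numpy 2.4.6, pandas 2.3.3 and, for plots, matplotlib 3.10.9 did the rest.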

Additional observations from a re-analysis of the deposited data

How the results depend on the processing

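With 1 array left out at a time, the number of collagen genes called higher ranged from 0 to 15 for late grafts minus biopsies, 0 to 3 for early grafts minus biopsies, 0 to 1 for late minus early grafts (0 to 1 lower), 0 to 8 for day 1 minus biopsies, 0 to 4 for day 3 minus day 1 and 0 to 3 for day 7 minus day 3, and the number called lower from 0 to 7 for day 10 minus day 7. For late minus early grafts the count higher was 0 with the graft kind as a block and 0 with the day as a random block. These fits called 11 and 10 of all genes higher. The count of collagen genes was 0 without the arrays of day 1, 7 without those of day 3 (1 lower), 0 without those of day 7 and 2 without those of day 10. Over all genes 0, 94 (241 lower), 111 and 34 were called higher in these fits. Averaging a gene's probe sets gave 0 calls for early grafts minus biopsies and 0 for day 3 minus day 1. Of all genes 689 and 5 were called higher there. With an intensity trend 2 genes were called higher for day 3 minus day 1 and 1 lower for day 10 minus day 7. Over all genes the trend gave 13 higher and 3 lower in these steps.

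At 4-fold, 0 genes were apart between PSI-F and PSI on day 1, 0 on day 7 and 0 between Diabetic and Control, and with probe sets averaged 0 on day 1. The class medians of day 7 minus biopsies were 1.11 for all collagen genes, 0.89 for FACIT and 0.83 for other with a mean in place of the median. Without genes near background they were 1.31, 0.70 and 1.3, and with probe sets averaged 0.72 for all collagen genes, 2.02 for fibrillar, 0.0017 for basement membrane and 0.41 for FACIT. No called gene changed direction under any alternative run, and no collagen gene was called between PSI-F and PSI under any of them. PSI-F and PSI grafts were paired by day in their comparison, and without this block 0 collagen genes were called as well. Pairing by replicate number was not possible, since each condition has 1 array. With 1 array per condition and values near background for 9 genes, smaller differences are not resolved.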
